A study of Mus musculus with 9 samples.

Results

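The transcripts of layer IV of the barrel cortex were described in 3 wild-type mice of the 9 in a study of the growth-associated protein GAP-43. The arrays were taken by their titles alone, which mark them WT for Gap43, and each holds the RNA of 1 C57BL/6 mouse at postnatal day 5. The remaining 6 arrays come from Gap43 heterozygotes and knockouts and are not compared here. The labels name no transgene and no treatment. Layer IV was cut out by laser microdissection, and its total RNA was purified on RNeasy columns, amplified through the 2-cycle cDNA protocol for small samples and labelled with biotin. After 64 control probe sets were set aside, 22626 of the 22690 probe sets of the array were ranked by their mean signal over the 3 mice. Nothing was tested: the values below are signals of 3 animals with their spread, and the number of arrays limits their precision.

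Layer IV is the input layer of the somatosensory cortex. Thalamic axons that carry the whisker signal end there and gather the local excitatory neurons, most of them spiny stellate cells, into the clusters called barrels. Around postnatal day 5 the barrels have formed, axons and dendrites still grow, synapses are few compared with the adult cortex, astrocytes are spreading, and myelin is not yet laid down. A dissected layer also holds interneurons, glia, vessels and the axons and processes that pass through it. In such bulk tissue, fewer cells of a type and less RNA per cell cannot be told apart.

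A total of 20380 ranked probe sets carried 1 gene symbol and read 12393 genes, each represented by its brightest probe set. A gene was called abundant where that probe set lay in the highest 5% of all probe sets, which began at a mean signal of 3021. A background bound was set on each array by genes restricted to other organs (genes of liver, pancreas, testis, muscle, epidermis, lens, odorant receptors and the like): the 95th percentile of 237 measured reference genes was 204 in WT 1, 243 in WT 2 and 213 in WT 3. Genes above the bound on all 3 arrays but not abundant were called moderate, genes above it on 1 or 2 arrays mixed, and the rest background. Background means only that a signal was not above that of genes of other organs; it does not show that a transcript was missing.

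Of the 12393 genes, 708 (5.71%) were abundant, 5083 (41.0%) moderate, 1076 (8.68%) mixed and 5526 (44.6%) at background. The abundant genes held 45.5% of the summed signal of all genes and the moderate genes 47.3%. The brightest 25 genes held 4.45% and the brightest 1000 held 53.4%. None of the reference genes was abundant, 6 were moderate and 12 mixed. The moderate ones were Tff1 (1569), Lor (1069), Krt10 (429), Kap (368), Krt1 (362) and Vmn1r148 (239), which marks how far above the bound a probe set of a gene of another organ can read. Just inside the abundant class were Pafah1b1 (3037), Scg3 (3029), Lxn (3027), Sf3b6 (3026), Pink1 (3022) and Arf3 (3021). Just outside were Tecr (3019), Dusp26 (3019), Aplp1 (3016), C1d (3015), Lrpap1 (3010.3) and Psap (3010.1).

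**Figure D1:**
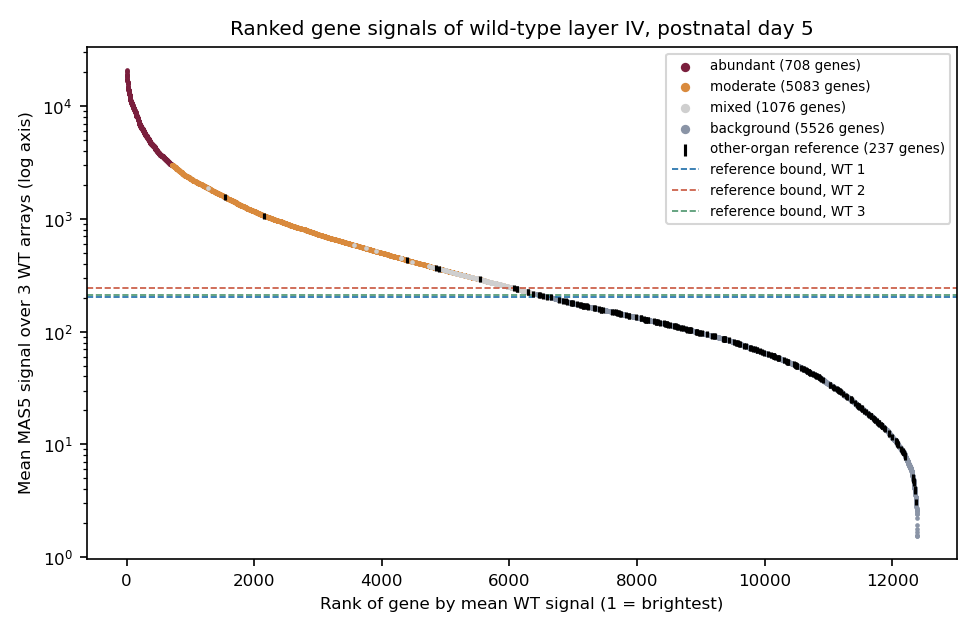
Mean MAS5 signal (log axis) of 12393 genes against rank, coloured by class, with black ticks for the 237 reference genes and dashed lines for the 3 background bounds. The 708 abundant genes form the steep left end above 3021, and most reference genes lie at the right below the bounds.

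The 3 arrays had been scaled to 1 level, a mean of 500.2 with the extreme 2% at either end of each array trimmed. Across the 22626 probe sets, Spearman's rho was 0.960 between WT 1 and WT 2, 0.969 between WT 1 and WT 3 and 0.958 between WT 2 and WT 3, where probe sets are not independent replicates. The control probe sets for Actb read 8.92-fold, 12.4-fold and 8.12-fold higher at the 3' end than at the 5' end in WT 1, WT 2 and WT 3, and those for Gapdh 12.9-fold, 19.5-fold and 12.5-fold, so WT 2 had the steepest 3' bias. A signal also depends on where a probe set lies in the transcript and how well it binds: among 521 abundant genes with more than 1 probe set, the brightest probe set exceeded the dimmest by a median of 14.3-fold. A rank therefore orders signals, not transcript numbers, and where a gene is called brighter or dimmer than another below, only the signals of their probe sets are ranked.

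Where 3 signals are given, they are those of WT 1, WT 2 and WT 3 in that order, and a single number is their mean. The 25 brightest genes were those of protein synthesis, the microtubule and actin skeleton, and energy and lipid metabolism. Hmgcs1, which makes the precursor of cholesterol, read 18579, 22697 and 21208 (mean 20828 ± 2085, SD, n = 3). Eef1a1, the factor that brings aminoacyl-tRNA to the ribosome, read 18607, 21527 and 21135, and Tuba1a, the alpha tubulin of developing neurons, read 18695, 24281 and 17733. All 3 genes were lower in WT 1 than in WT 2, and Tuba1a was lowest in WT 3. The list went on with the ribosomal proteins Rpsa, Rps2, Rpl41, Rps14 and Rps29, the growth-related Tpt1, the stathmins Stmn3 and Stmn1, which bind free tubulin, the tubulin Tubb5, the actin Actg1 and the actin-monomer binder Tmsb10. It also held the aldehyde reductase Akr1a1, the 14-3-3 adaptor Ywhab, the actin-binding Enc1, the kinase inhibitor Pebp1, the complex III subunit Uqcrb, Snap47, the imprinted Ndn, the chaperone Hspa8, the membrane glycoprotein Gpm6a, the nucleotide hydrolase Hint1 and the fatty acid binder Fabp5 (14333). The brightest of all probe sets, at 22807, is annotated to Rpl23 and to pseudogene-like loci and was not named. Of the 1132 abundant probe sets, 194 had no single symbol and stay outside the gene counts. A gene that shares its best probe set with a paralogue or pseudogene is therefore missing from the lists or is read by a dimmer probe set. This touched many lists, and the counts and orders below are those of single-symbol probe sets unless stated otherwise. Abundant probe sets left out include those annotated to Tuba1b (18590), Ppia (18126), Sumo2 (12317), H3f3a and H3f3b (11740) and Gapdh (11690). Others are those of Prdx1 (7457), Snrpn (6852), Eef1g (6846), Hnrnpa3 (5646) and Ftl1 (5260). For Myl6 and haemoglobin, the signals left out are given with their lists.

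Gap43 itself, whose protein shapes the growth cone membrane, was abundant, with signals of 7089, 4746 and 4294 (mean 5376 ± 1500.4, SD, n = 3, rank 320 of 12393). WT 1 lay above WT 2 and WT 3, and the highest signal was 1.65-fold the lowest, against a median of 1.25-fold for abundant genes.

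Ribosomal protein genes and translation factors were mostly abundant. Of 47 genes of the cytosolic ribosome, 33 were abundant, 9 moderate, 4 mixed and 1 at background, and their median rank percentile was 98.8, where all genes had 58.1. The brightest were Rps2 (14794, 21125 and 16356), Rpl41 (14571, 18699 and 16774) and Rps14 (14266, 18552 and 16591), each highest in WT 2 and lowest in WT 1. The dimmest were paralogues with restricted expression, Rpl39l (91.8) and Rpl3l (17.4), the latter a muscle form. Ribosomal genes have many near-identical pseudogenes, and their probe sets can share signal with them. With the probe sets of several symbols counted for each gene they name, 41 of the 47 were abundant. Of 23 translation factors, 17 were abundant and 6 moderate: Eef1a1 and Tpt1 led, with Eif4h (11556) next, and Eif3k (1792) and Eef1d (1321) were dimmest. The 71 measured proteins of the mitochondrial ribosome, which translates the few genes of the mitochondrial genome, lay lower in rank and close together: 0 were abundant and 69 moderate, from Mrpl41 (2996) through Mrpl51 (2672) and Mrpl11 (2615) to Mrpl54 (244), with Mrpl37 (70.9) at background.

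Promoters of ribosomal genes are shown here because many of them share short runs of letters near the start. RefSeq promoter windows of 300 bases (assembly GRCm38.p6, 250 before to 50 after the start) were matched for 41 of the 47 ribosomal genes. A run of at least 6 pyrimidines that holds the start base, the mark known from ribosomal transcripts whose translation follows growth signals, stood in 12 of 41 (29.3%), where 7.10% of all 27025 windows held one. For Rpl7a (13268), Rpl38 (13074) and Rps18 (12624) the 30 bases around the start are given 5′ to 3′ with the run in capitals:
Rpl7a, chr2:26910792-26910821, plus strand: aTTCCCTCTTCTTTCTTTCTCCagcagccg
Rpl38, chr11:114668565-114668594, plus strand: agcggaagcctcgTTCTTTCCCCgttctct
Rps18, chr17:33955651-33955680, minus strand: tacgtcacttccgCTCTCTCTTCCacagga

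The letters CCGGAAG, read on both strands and known as the core bound by ETS-family factors, stood in 20 of 41 ribosomal windows (48.8%), 32.3% of the windows of mitochondrial ribosomal genes and 24.6% of those of the respiratory chain. They stood in 20% of abundant and 21.0% of moderate genes, against 15.0% of all genes on the array and 9.12% of all windows. Of the windows of the reference genes of other organs, 1.04% held them. A match is a description of letters, not of binding. The capitals mark the match, as CCGGAAG or its reverse complement, in promoters of bright ribosomal genes and of the cytochrome oxidase genes Cox6a1 (13609.8) and Cox6b1 (13344):
Rps2, chr17:24719916-24719962, plus strand: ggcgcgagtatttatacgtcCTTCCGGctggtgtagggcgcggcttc
Rpl41, chr10:128549198-128549244, minus strand: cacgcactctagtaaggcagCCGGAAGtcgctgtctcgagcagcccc
Rps7, chr12:28635954-28635987, minus strand: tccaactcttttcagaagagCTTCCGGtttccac
Rpl38, chr11:114668540-114668579, plus strand: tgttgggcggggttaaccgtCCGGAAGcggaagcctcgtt
Cox6a1, chr5:115348959-115348994, minus strand: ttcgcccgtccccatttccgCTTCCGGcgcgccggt
Cox6b1, chr7:30626116-30626162, minus strand: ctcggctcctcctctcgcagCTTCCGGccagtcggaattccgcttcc

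The reference genes of other organs had another promoter make-up. The letters TATAAA, on the strand of the gene and between 40 and 16 bases before the start, stood in 13.5% of their windows. The share was 2.81% for all genes on the array, 2.22% for all windows, 1.58% for abundant and 0.958% for moderate genes. Their median ratio of observed to expected CpG was 0.172. It was 0.847 in abundant genes, 0.798 in moderate genes, 0.706 in all genes on the array and 0.389 in all windows. Median GC content was 46.7% in the reference genes, 62.3% in abundant genes and 59.3% in all genes on the array. These were shares of the 80.5%, 82.2% and 81.0% of abundant, moderate and reference genes with a window. Of all genes on the array, 79.8% had one. Of background genes 77.5% had a window, and 5.02% of these windows held the TATA letters and 8.62% CCGGAAG. Of mixed genes 79.7% had one, and the TATA letters stood in 1.63%. The median CpG ratio was 0.463 in background and 0.744 in mixed genes. The capitals mark the TATA letters in 4 such genes: Svs4 of the seminal vesicle (5.1), Ppy of pancreatic islets (11.7), Sprr1b of the epidermis (13.9) and Cryba1 of the lens (16.6):
Svs4, chr2:164278310-164278355, minus strand: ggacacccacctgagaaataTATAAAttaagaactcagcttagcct
Ppy, chr11:102101325-102101370, minus strand: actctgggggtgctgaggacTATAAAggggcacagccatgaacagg
Sprr1b, chr3:92438784-92438829, minus strand: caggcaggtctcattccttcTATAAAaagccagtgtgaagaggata
Cryba1, chr11:77725294-77725336, minus strand: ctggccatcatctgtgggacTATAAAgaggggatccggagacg

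Genes of oxidative phosphorylation, whose complexes make ATP in mitochondria, were also mostly abundant. Of 80 measured subunits, 48 were abundant, 26 moderate, 2 mixed and 4 at background, with a median rank percentile of 96.2. Uqcrb of complex III read 14661, 19502 and 14478, and the cytochrome oxidase subunits Cox7a2 (12483, 15480.3 and 13579) and Cox6a1 (11889.5, 14996 and 13944) followed. The dimmest were Cox6b2 (77) and Cox8b (9.96), known as forms of testis and of heart and muscle. Cox7c, which all cells are known to use, also read at background (102), and is named here after its values were seen. In WT 2, the highest of the 3 signals was found for 52 of the 74 subunits above background, where WT 2 was highest for 44.7% of all abundant and moderate genes and for 57.2% of the abundant ones.

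Glycolysis and the citric acid cycle gave 13 abundant and 15 moderate genes of 29. Pgk1 (12878) and the malate dehydrogenases Mdh2 (9503) and Mdh1 (9304) were brightest, Ogdh (300.1) was near the bound and Hk2, the hexokinase of muscle and growing cells, was at background (139.5, 135 and 174). All 15 measured ion pump genes were abundant or moderate, led by Atp6ap2 (11246), Atp1b1 (10239) and the calcium pump Atp2a2 (8369.9), with Atp6v1g2 (1038) and the glial Atp1b2 (786) dimmest. Among 20 genes of iron storage and oxidant defence, 7 were abundant, led by the ferritin Fth1 (9379), Txn1 (6601) and Prdx2 (6044), while Mt3 (46.5) and the stress enzyme Hmox1 (40.5) were at background.

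The protein quality machinery was also bright. Of 29 chaperones, 19 were abundant: Hspa8 (14136, 17451 and 16436), Fkbp1a (11891) and Hsp90aa1 (9958) led. The stress-induced Hspa1b (107, 161 and 146) and Hspa1a (86.4, 96.5 and 96.2) stayed at background in all 3 mice. Of 38 proteasome genes, 14 were abundant and 18 moderate, with Psma6 (9444), Psmc2 (9184) and Psmd14 (6468) at the top. The dimmest were Psma8, a form of testis (35.1), and Psmb8, a subunit of the immunoproteasome (18.8, 22 and 15). Of 8 ubiquitin pathway genes, Skp1 (3897), Ube2d3 (3267) and Ube2b (3247) were abundant and the other 5, down to Nedd8 (1771), Usp9x and Ube2n (445), moderate.

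**Figure D2:**
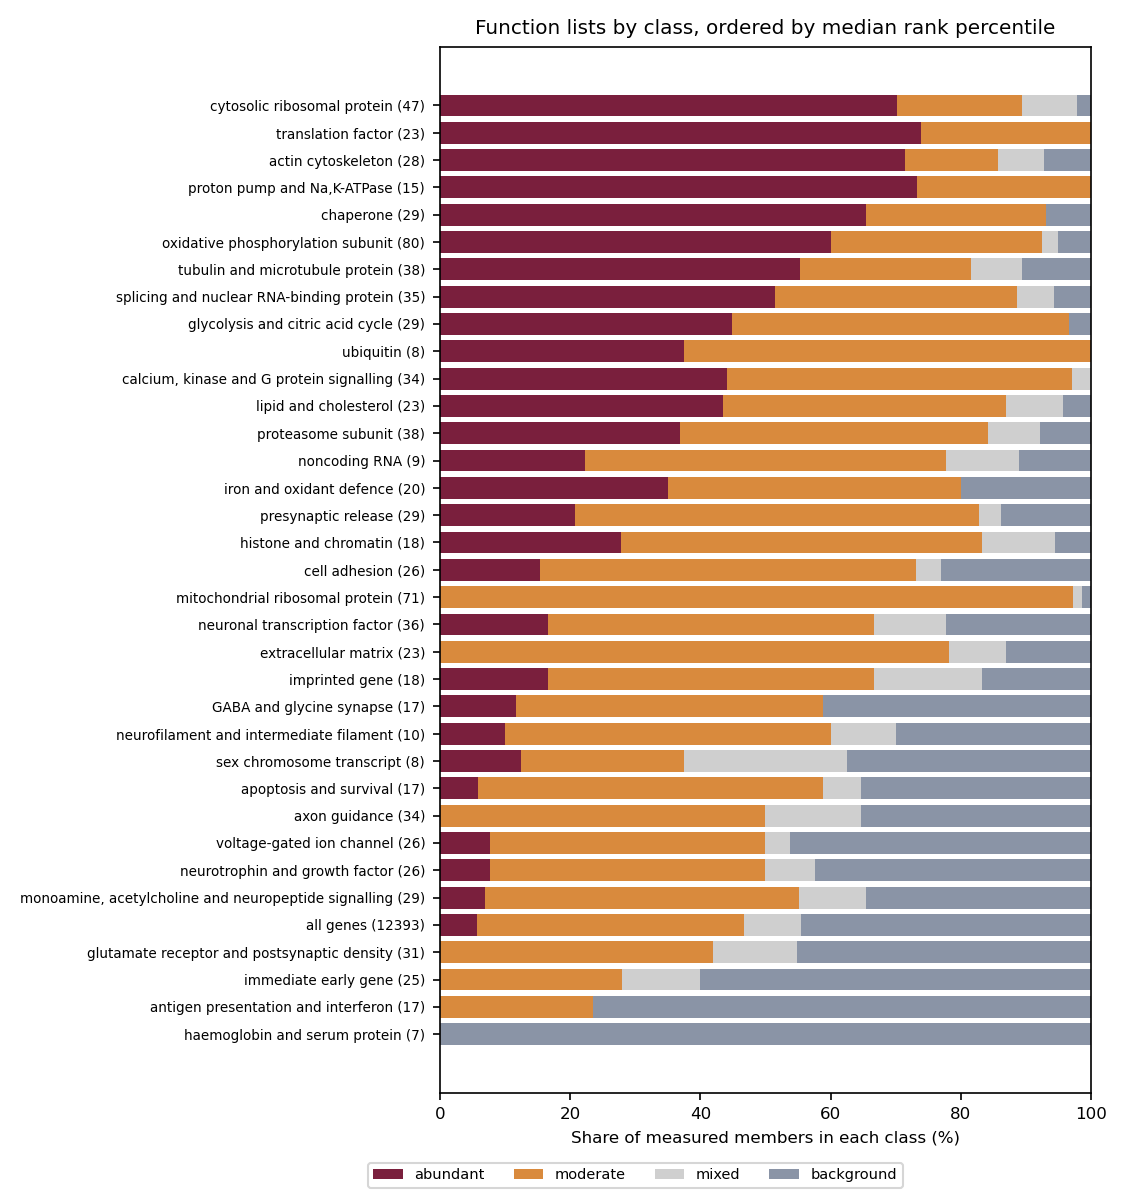
Share of the measured members of each function list that were abundant, moderate, mixed or at background, ordered by median rank percentile, with the number measured in brackets and all 12393 genes for reference. Ribosomal proteins (33 of 47 abundant) and translation factors (17 of 23) stand at the top, and immediate early genes (0 of 25 abundant) and antigen presentation below all genes. Probe sets with several symbols, among them 3 abundant ones for haemoglobin, are not counted.

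The skeleton of growing neurons made up the next group. Of 38 tubulin and microtubule genes, 21 were abundant and 10 moderate, with a median rank percentile of 95.1. After Tuba1a, Stmn3 (16637, 21738 and 18157) and Stmn1 (15552, 18527 and 16886) were brightest, both highest in WT 2. Kif5a, a motor of mature axons (109), and Dpysl2, a collapsin response mediator known from developing neurons (20.4, 83.4 and 10.9), were dimmest and at background. Dcx, the microtubule protein of young neurons, is named after its values were seen: it was abundant and even across the mice, at 9779, 10575 and 9987.

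Of 28 actin genes, 20 were abundant and 4 moderate. Actg1 read 16675, 19958 and 18519, Tmsb10 14854, 18628 and 17389 and Tmsb4x, which like Tmsb10 holds actin monomers, 13350.3, 14927 and 14105. Basp1, a partner of GAP-43 at the growth cone membrane, read 10359, 15150.3 and 12019 and is named after its values were seen. At the other end, Pfn1, found in most cells, was at background (97.5, 32.2 and 104). Myl6, a myosin light chain, read 176 in its single-symbol probe set, but 2 probe sets annotated to Myl6 and pseudogene-like loci were abundant, with means of 10831 and 3792. The neurofilament list held 1 abundant gene of 10, Nefl, at 5769.6, 4229 and 1835, whose highest signal was 3.14-fold its lowest. Ina (1927) and Vim (1129.5) followed, and Nefh, the heavy chain of mature axons (170.2, 72.8 and 69.2), and Gfap (120.1, 132 and 116) were at background.

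Lipid and cholesterol genes, among them fatty acid binders and membrane glycoproteins beside enzymes of synthesis, gave 10 abundant and 10 moderate genes of 23. Hmgcs1, Gpm6a (12761, 15703 and 15861) and Fabp5 (13239, 15349 and 14410.2) led. Fdft1, an enzyme of sterol synthesis, had the smallest spread of all abundant genes, 4395, 4403 and 4413. Apod (151, 373 and 253), mixed, and Acaca, the acetyl-CoA carboxylase (79.8, 124 and 96.3), at background, were dimmest.

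Signalling genes of the kinase, calcium and G protein list were above background on all arrays for 33 of 34, and 15 were abundant. The adaptors Ywhab (15447, 20929 and 17962) and Ywhaq (9180.2, 11412 and 10956) and the G protein subunit Gnb1 (9567) were brightest. Prkca (264) and the adenylyl cyclase Adcy8, which was mixed (339.9, 205 and 324), were dimmest.

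RNA-binding proteins of the nucleus gave 18 abundant and 13 moderate genes of 35, led by Matr3 (9969), Hnrnpab (9069.9) and Hnrnpk (8947). The dimmest, at background, were Elavl1 (124, 141 and 212) and Ptbp1, the splicing factor that neurons are known to switch off (107, 176 and 186). Ptbp2, which takes over from it in young neurons, was abundant at 3051, 3709.9 and 3030.4 and is named after its values were seen. Of 18 chromatin genes 5 were abundant, with the histone variant H2az1 (10043), Rbbp4 (7433) and Rbbp7 (6716) at the top, while Chd4 was mixed (200.1) and Hmgb2, a protein of dividing cells, was at background (75.7). Among 9 noncoding RNAs, Meg3 (6190.0, 8892 and 8427) and Malat1 (2850.1, 3081 and 5049.9) were abundant, Snhg6 (3004) stood just under the abundance threshold, Rian (561) was moderate and Neat1 (8.75, 16.4 and 7.93) at background. Meg3 was also among the 3 abundant genes of 18 imprinted ones, beside Ndn (15165, 17931 and 15417) and Gnas (7467, 8651 and 7241). Dlk1 (115) and Peg10 (35.4) were at background.

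Genes of transmitter release were mostly moderate or abundant. Of 29 presynaptic genes, 6 were abundant and 18 moderate, with a median rank percentile of 87.1. Stx1a (7999, 12345 and 9065), Cplx1 (6951, 9776 and 6993) and Snap25 (5720.0, 5065 and 5652), all parts or partners of the complex that fuses vesicles, led. Bsn, a scaffold of the active zone (63.7, 101 and 69.4), and Rph3a (46.7, 54 and 80.1) were at background.

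Of 31 genes of glutamate receptors and the postsynaptic density, 0 were abundant, 13 moderate, 4 mixed and 14 at background. Their median rank percentile of 56.1 was close to the 58.1 of all genes. Camk2g (2047, 2154 and 1914), Nlgn2 (1753, 2435 and 1711) and Camk2b (1614, 1696 and 1787) were brightest. Grik2 (8.45, 11.9 and 6.75) and Camk2a, the kinase subunit that accumulates as cortical synapses mature (2.43, 2.99 and 2.77), gave the dimmest signals. Camk2a was read by 1 probe set, so no other probe set of the gene can be set beside it.

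Of 17 GABA and glycine synapse genes, 2 were abundant and 8 moderate. Gabbr1, a subunit of the metabotropic GABA receptor, read 5031, 6949 and 5091. Slc12a5, the chloride exporter that makes GABA inhibitory and is known to increase after birth, read 3378, 3316 and 3452. Gabrb1 (2703, 3207 and 2814) followed, and Gabra2 (64.2) and Gabrg3 (53.9) were at background. Slc12a2, the chloride importer of young neurons, was moderate at 1515, 1005 and 987 and is named after its values were seen. Of 26 voltage-gated channel genes, Scn3b (3411, 4202 and 2682) and Kcnd2 (3338, 2344 and 3501) were abundant, Scn2a, the sodium channel of young axons, was moderate (1232, 1524 and 1439), and Scn3a (38.9) and Cacna1b (15) were at background.

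Among 29 genes of monoamine, acetylcholine and neuropeptide signalling, the granule proteins Chgb (6259.8, 5881 and 5222) and Scg3 (2934, 3161 and 2993) were abundant and Scg5 (2302, 1934 and 1870.4) led 14 moderate genes. The muscarinic receptor Chrm1 (21.5) and the serotonin transporter Slc6a4 (9.94, 14.2 and 11.2) were dimmest, at background. At this age thalamic axons in the barrels are known to take up serotonin with that transporter, and their cell bodies lie outside the cortex. Slc6a4 was read by 1 probe set, and what lies behind its low signal was not tested. Htr1b, a serotonin receptor of the same axons, was moderate at 390.5, 405 and 355, in the thalamic marker list below.

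The axon guidance list held no abundant gene: 17 of 34 were moderate, 5 mixed and 12 at background. Sema7a, a semaphorin known to act in barrel formation, read 1455, 1866 and 1879.8. The ephrin receptors Epha5 (1221, 1057 and 1272) and Epha4 (1103, 973 and 1182) followed, and their signals lay within 1.5-fold over the 3 mice. Slit3 (18.4, 20.8 and 21.4) and Efna5, an ephrin that helps to order the whisker map (10.6, 30.4 and 12.8), were at background. Of 26 adhesion genes, 4 were abundant and 15 moderate, with Ncam1 (9274, 12565 and 10348), the beta-catenin Ctnnb1 (7724, 5809 and 8180.5) and Cntn1 (5286, 6080.1 and 5012) at the top and Itgb1 (118) and Cntn2 (65.5) at the bottom. Of 23 matrix genes, 18 were moderate and 0 abundant: Ptprz1 (2841, 2461 and 3061), Agrn (2116, 1822 and 2008) and Reln (2241, 1804 and 1035) led, and Hapln1 (84), a link protein of the nets that form around neurons later, and Lamc1 (80.5) were at background.

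Transcription factors of cortical neurons included 6 abundant and 18 moderate genes of 36. Mef2c, a factor of postmitotic excitatory neurons that acts on synapse number, read 12199.9, 14206 and 14108. Zbtb18 (8675, 9326 and 10480.5) and Nfix (7129, 9847 and 7742) followed. Foxp2, a factor of layer VI (89, 73.4 and 78.4), and Pou3f3 (32.7) were dimmest.

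Immediate early genes, which activity switches on, were mostly not above background: 0 of 25 were abundant, 7 moderate, 3 mixed and 15 at background. Egr1 (1383, 1706 and 1401), Rgs2 (1791, 881 and 1365) and Jund (761, 916 and 995) were brightest. Arc (27.4, 17.5 and 28.5) and Atf3, a factor of injured neurons (24.9, 28.5 and 15.7), were dimmest. Fos, named after its values were seen, read 186, 132 and 148, below the bound on each array.

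Of 26 growth factor and receptor genes, Ptn (5756, 6156 and 7353) and Fgf13, an intracellular partner of sodium channels and microtubules (3343, 2840.2 and 3926), were abundant and 11 moderate, led by Sort1 (1293). Gdnf (10.4) and Erbb4 (3.77) were dimmest. Mcl1 (3356, 4602 and 3930.1) was the 1 abundant gene of 17 in the apoptosis list, with Xiap (895) and Bcl2l1 (858) next, and the death genes Pmaip1 (15.6) and Fas (8.32) at background. Of 17 genes of antigen presentation and interferon response, B2m (459.6, 553 and 519), H2-K1 (242, 440.0 and 494), H2-D1 (365) and Irf1 (318) were moderate and the other 13, down to H2-Ab1 (39.5) and Psmb8, at background. The serum protein genes Alb (137, 225 and 117), Afp (104), Ahsg (21.7) and Ttr (8.29) were at background. Haemoglobin was abundant, but only in probe sets that several haemoglobin genes share, which are described with the blood markers.

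Cell type markers placed astrocytes and excitatory neurons highest, and choroid plexus and meninges low. Over 20 marker lists, the astrocyte list had the highest median rank percentile, 82.7, followed by excitatory neurons at 77.1 and endothelial cells at 68.6. The choroid plexus list had 24.4, where the reference genes of other organs had 25.8. The blood list also had 24.4, but without the haemoglobin probe sets that carry several symbols; with them, 3 of its 10 members were abundant. Counted once each, 93 marker genes were above the bound on all arrays, and 284 members of the function lists were abundant. With probe sets of several symbols counted, 97 of 256 marker genes were above it and 313 of 934 function members abundant. Of all genes, 46.7% were above the bound on all arrays and 5.71% abundant, so the markers together did not exceed the share of all genes. A list's median depends on which genes were listed and on their probe sets, so the order of the lists is not an order of cell numbers.

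**Figure D3:**
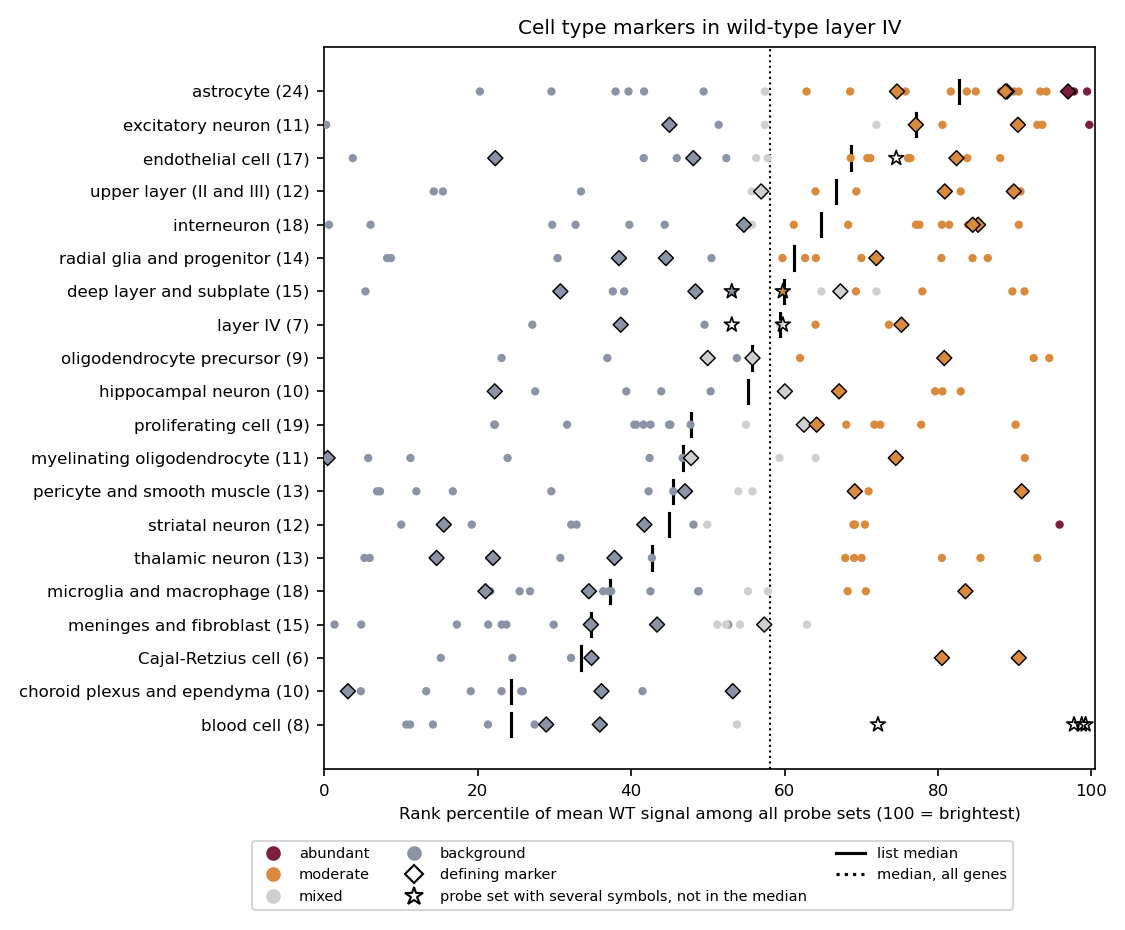
Rank percentile of the mean signal of each measured marker in 20 cell type lists (points coloured by class, diamonds for defining markers, bars for list medians, dotted line for the median of all genes at 58.1). Astrocyte and excitatory neuron medians lie at 82.7 and 77.1, and choroid plexus and meninges at 24.4 and 34.8. Open stars mark brighter probe sets with several symbols, which the medians leave out; in the blood list 3 of the 4 of haemoglobin stand at 97.7 to 99.2.

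Of 11 markers of excitatory neurons, Mef2c was abundant, 5 were moderate, 2 mixed and 3 at background. The share above the bound on all arrays was 54.5%, against 46.7% of all genes. Cdk5r1 (2245, 2706 and 2323) and the vesicular glutamate transporter Slc17a6 (2146, 1632 and 2901), which young cortical neurons carry before Slc17a7, followed Mef2c. The defining factors Neurod6 (2123, 1338 and 1569) and Neurod2 (491, 656 and 628) were above the bound on each array. Tbr1, a factor of deep layers and newborn neurons (126, 80.4 and 210.4), was at background, and Slc17a7 had no probe set with a single symbol.

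For layer IV, 7 of 13 listed genes were measured, and 3 were moderate. Rorb, the nuclear receptor that marks barrel neurons, read 541, 459.7 and 589, above the bound on all 3 arrays and within 1.28-fold. Btbd3, which turns dendrites of barrel neurons towards active axons, read 309, 489 and 664, with WT 3 highest, and Lmo4, a cofactor of several layers, read 280.4, 306 and 321. Nr1d1 was mixed (207, 320.3 and 209.8), and Scnn1a (160.2, 191 and 142), the defining Rspo1 (90.9, 142 and 96.5) and Kcnab3 (23.4, 109.8 and 69.3) were at background. The defining Kcnh5 had no single-symbol probe set. The 3 of 7 above background (42.9%) are close to the 46.7% of all genes, and the list's median rank percentile of 59.4 is close to the 58.1 of all genes. Of the defining markers of the labelled layer, Rorb alone read above background on all arrays.

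Some markers of the neighbouring layers also read above background. Of 12 genes of layers II and III, 7 (58.3%) were moderate, and the list's median rank percentile was 66.7: Limch1 (1505, 1781 and 1912), Cux1 (1525, 1597 and 1636), which layer IV is known to carry too, and Inhba (1174, 1496 and 1874) led. Lhx2 was moderate (898, 391 and 969.7) and low in WT 2, Cux2 mixed (156, 201 and 307), and Pou3f3 and Rasgrf2 (29.6) at background. Of 15 deep layer and subplate genes, 5 (33.3%) were moderate, and the list's median rank percentile was 59.9. Over all genes, 46.7% were above the bound on all arrays. Pcp4 (2405, 2322 and 803), Kcnk2 (2069.8, 1298 and 1297) and Ldb2 (901, 739.9 and 227) were the brightest deep layer genes. The defining Bcl11b was mixed (502, 339.9 and 212), and Foxp2 and Ccn2, a subplate marker listed under its older name Ctgf (144, 192 and 136), were at background, as was Diaph3 (12). Pcp4, Ldb2 and Bcl11b were all lowest in WT 3, as was the mixed Fezf2 (706, 540 and 92.1). Other members did not follow: Tle4 was highest in WT 3 (402, 329 and 434), and Crym was lowest in WT 2 (506, 177 and 256). What cells of neighbouring layers added to these signals was not tested.

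Of 18 interneuron genes, 10 (55.6%) were moderate, 1 mixed and 7 at background, where 46.7% of all genes were above the bound on all arrays. Gad1, which makes GABA, read 1358, 890.5 and 813, and Slc32a1, which loads it into vesicles, 1067, 1229 and 602. Gad2, the other GABA-making enzyme, read 202, 195 and 209, below the bound on each array. Reln, carried by some interneurons and by Cajal-Retzius cells, read 2241, 1804 and 1035. The peptides that divide interneurons into classes, named after their values were seen, read 831, 1221 and 737 for Vip, 1083, 790.1 and 475 for Npy and 810.1, 671 and 342 for Sst. Npy and Sst were each lowest in WT 3, as were 9 of the 10 moderate markers, and 7 of the 10 were highest in WT 1. Over all abundant and moderate genes, 29.9% were lowest in WT 3 and 29.8% highest in WT 1. Maf (13) and Erbb4 were dimmest, and Pvalb, which the basket cells of this layer acquire later, read 123, 122 and 97.2, at background. Dlx2 (136), Dlx5 (87.1) and Dlx6 (76.4) were at background too. The Cajal-Retzius list shared Reln and Calb2 (959, 855 and 384) with interneurons. Its other 4 measured members, among them the defining Trp73 (88.3, 81.1 and 114), Lhx5 (59) and Lhx1 (31.8), were at background.

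Astrocytes gave 3 abundant and 14 moderate markers of 24 (70.8%), where 46.7% of all genes were above the bound on all arrays. Fabp7, the brain fatty acid binder of young astrocytes and radial glia, read 10996, 8798 and 13706, the glutamine synthetase Glul 4766, 6413 and 5312 and the gap junction protein Gja1 3819, 4592 and 5081. The defining Slc1a3, a glutamate transporter (1251, 1614 and 1359), Aqp4, the water channel of astrocyte endfeet (1311, 1394 and 1625), and Aldh1l1 (498, 494 and 549) were moderate, and the highest signal was at most 1.29-fold the lowest. Gjb6 (31, 137 and 60.0) and Mt3 (19.7, 17.1 and 103), genes of mature astrocytes, were at background, as was Gfap. The other astrocyte markers at background were Ntsr2 (164), Slc1a2 (114) and Sox9 (107). Of the 17 astrocyte genes above background, 12 were highest in WT 2 and 12 lowest in WT 1, against 44.7% and 35.3% of all abundant and moderate genes.

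Of the oligodendrocyte lineage, 4 of 9 precursor markers (44.4%) and 2 of 11 myelin markers (18.2%) were moderate. The precursor share is close to the 46.7% of all genes above the bound on all arrays, and the myelin share is below it. Ptprz1, Olig1 (2357, 2087 and 1890.1) and Pdgfra (858, 803 and 586) were the brightest precursor markers. Cspg4 (212, 218 and 203) and Olig2 (217, 137 and 146) were mixed, and Matn4 (103) and Nkx2-2 (54.8) at background. Of 11 genes of myelinating cells, Cnp (939.6, 3087 and 1530.2) and Mbp (482, 539 and 511) were moderate, Fa2h (278, 420.4 and 209), Mal and Mag (109, 267 and 87.3) mixed, and the other 6, down to Mobp (4.28, 5.27 and 28.1) and Mog (2.56, 5.26 and 2.16), at background.

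Microglia gave 3 moderate genes of 18 (16.7%), where 46.7% of all genes were above the bound on all arrays. They were Csf1r, the growth factor receptor of these cells (675, 1410.2 and 628), C1qb (208, 813 and 217) and Ctss (353, 495 and 253). All 3 were highest in WT 2. The defining Aif1 (95.8, 105 and 79.5) and C1qa (25.5, 101 and 19.3) were at background on all arrays, and Itgam (50.5) was second lowest. WT 2 was also the highest array for C1qa, a complement subunit of the same complex as C1qb.

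Of 17 endothelial genes, 9 (52.9%) were moderate, where 46.7% of all genes were above the bound on all arrays. Among the 9 were Itm2a (1572, 799 and 1555), Slco1c1, a thyroid hormone transporter of brain vessels (1044, 660.5 and 1061), and the defining tight junction protein Cldn5 (684, 829.7 and 984). Flt1 (183), Tek (179.7, 112 and 175), Cdh5 (144), Emcn (123), Pecam1 (27.2, 43.6 and 86.6) and Tie1 (9.32) were at background. Pericytes and smooth muscle gave Rgs5 (1658, 1899 and 1716), Notch3 (419.8) and Acta2 (305, 489 and 360.4) as the 3 moderate genes of 13 (23.1%). Pdgfrb (104, 205 and 141), Tagln (15) and Cnn1 (14.4) were at background. In the meningeal list, 0 of 15 genes were above the bound on all arrays: Igf2 (288, 210.1 and 368), Col1a2 (236, 209 and 229.9) and Col6a3 (198) were mixed, and Col1a1 (131), Dcn (94.2), Crabp2 (11.1) and Aldh1a2 (5.39) at background.

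Haemoglobin transcripts of red cells were abundant in all 3 mice. The brightest probe set annotated to the alpha globins Hba-a1 and Hba-a2 read 6282, 9972 and 14262 (mean 10172 ± 3994, SD, n = 3), and another read 3306, 5127 and 8068. A probe set shared by 4 beta globins, Hbb-b1 among them, read 4844, 8039 and 11475. Each was lowest in WT 1 and highest in WT 3, by 2.27-fold, 2.44-fold and 2.37-fold. A further alpha globin probe set was mixed, and the single-symbol probe sets of Hba-a1 (65.6, 94.7 and 135) and Hba-a2 (99.6, 123 and 128) were at background. Among the other blood genes, Alas2, the enzyme of haem synthesis in red cells (31.3, 32.2 and 157), Epb42 (22.2) and the neutrophil gene S100a8 (21.2) were at background, and Ngp (195) was mixed.

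The choroid plexus left no member above the bound on all arrays. Folr1 (190.3), Aqp1 (122), Foxj1 (99.3), Otx2 (11) and Ttr (8.11, 8.76 and 8.01) were at background.

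Progenitor genes were split, with 57.1% of them moderate, where 46.7% of all genes were above the bound on all arrays. Vim (1498, 745 and 1146), Hopx (845, 1255 and 796) and Sox2 (727), which astrocytes also carry, were brightest of 8 moderate genes among 14, with the defining Hes5 at 302, 598 and 437. The neurogenic factors Eomes (127, 149.5 and 133), Pax6 (108, 83.8 and 135), Neurog1 (17.5) and Neurog2 (16.6) were at background. Of 19 genes of dividing cells 7 (36.8%) were moderate, and Pcna (1909, 1066 and 1899), Rrm2 (617) and Mcm2 (457) led. Top2a read 272, 305 and 334 and Mki67, mixed, 369.5, 229.8 and 248, while Bub1 (52.3) and Tyms (52) were at background.

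The lists of brain regions outside the cortex did not exceed all genes in the share above the bound on all arrays. It was 46.2% for the thalamic, 33.3% for the striatal and 40% for the hippocampal list, and 46.7% for all genes. The thalamic list had 6 moderate genes of 13, led by Slc17a6, Rora (1065, 1097 and 967) and Calb2. Prkcd (402), Htr1b and Cacna1g (362) were moderate too. Its defining factors Tcf7l2 (53.6, 67.9 and 33.2), Lhx9 (107) and Gbx2 (30.6) and Lef1 (12.9) were at background. Of 12 striatal genes Foxp1, also a factor of cortical neurons, was abundant at 3088, 4933 and 2609, Tac1 (410.1) and Rgs9 (386) were moderate, and Drd2 (145, 148 and 76), Ppp1r1b (32.9) and Isl1 (19.9) were at background. Of 10 hippocampal genes Calb1 (865), Neurod1 (736), Man1a (688) and the defining Zbtb20 (535, 271 and 239) were moderate, Wfs1 (253) was mixed, and Dsp (68.8) and Prox1 (52.2) were at background.

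A background call can fail a gene that is certainly transcribed. Of 288 members of 6 lists of general cell functions, 11 (3.82%) were at background. Most of these are forms of testis, muscle, stress or the immune system, but Cox7c and Mrpl37 are general subunits. Pfn1, Dpysl2, Map2 (133, 141 and 95.6) and Itgb1, known in neurons or most cells, read at background too, and Map2 is named after its values were seen. What each probe set of these genes covers was not tested.

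The spread between the mice shrank as signals grew. The ratio of the highest to the lowest of the 3 signals had a median of 1.25 in abundant, 1.30 in moderate, 1.53 in mixed and 1.63 in background genes. It passed 2 in 5 abundant genes (0.706%), 187 moderate genes (3.68%) and 1886 background genes (34.1%). Next to Fdft1, the steadiest abundant genes were Svbp (3568, 3561 and 3593), Nars (3127, 3086 and 3079.7), Mycbp2 (4011, 4000.2 and 3940.4), Yaf2 (5048), Lamtor1 (6235), Hsp90aa1 (9962, 9836 and 10077) and the noncoding RNA Norad (10492, 10380.1 and 10224).

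The 12 abundant or moderate genes with the widest ratio differed in which mouse was highest or lowest. Highest in WT 2 were Gpaa1 (223, 1352 and 252), Pttg1 (1058, 4235 and 1765), C1qb and Cnp. Lowest in WT 2 were Srsf2, a splicing factor (1902, 717 and 2506), Sox4, a factor of young neurons (2750.3, 883 and 2703), and the lactate transporter Slc16a1 (596, 318 and 1104). Scg2 was highest in WT 1 (1424, 325 and 488), and Ldb2, Pcp4, Nefl and Zfp617 (729, 494 and 216) were lowest in WT 3. Of the 192 abundant and moderate genes over 2-fold, WT 1 was highest for 99 and WT 2 lowest for 107. Gpaa1, Pttg1, C1qb and Cnp each have 3 probe sets, Srsf2 has 4 and Sox4 has 6, and the values are those of the brightest.

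**Figure D4:**
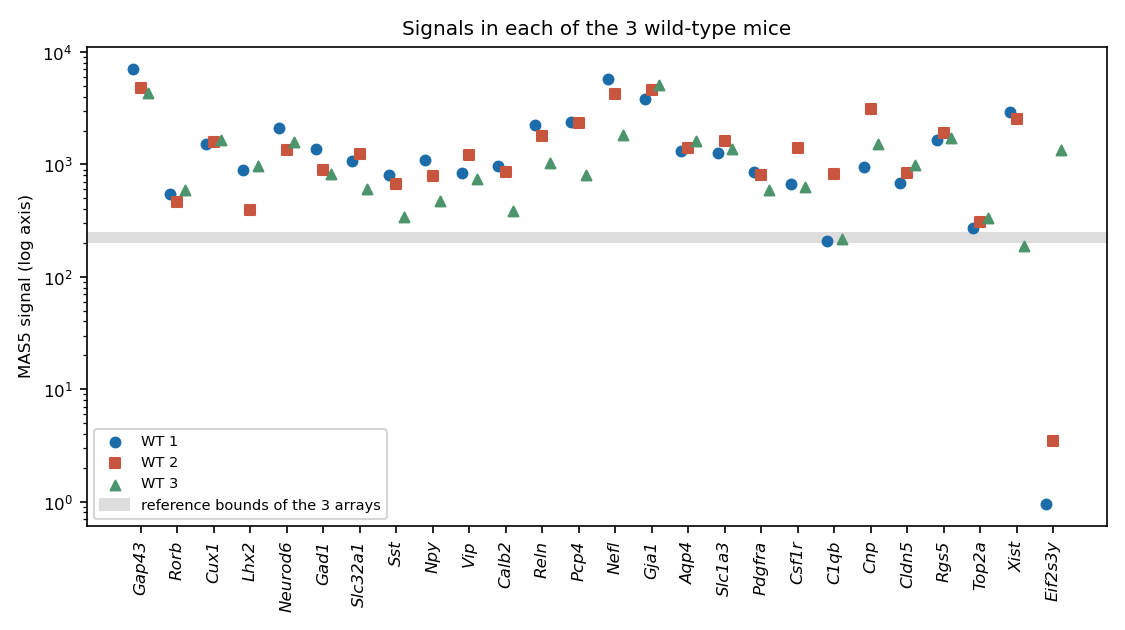
MAS5 signal (log axis) of 26 genes in each of the 3 wild-type mice, with the band of the 3 background bounds (204 to 243) in grey. Sst, Npy, Pcp4 and Nefl are lowest in WT 3, C1qb and Cnp highest in WT 2, and Xist and Eif2s3y separate WT 3 from the others.

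The spread was also taken by gene group. Each gene's deviation from its mean over the 3 mice was taken on the log2(signal + 16) scale, whose median over all genes was -0.02 in WT 1, 0.04 in WT 2 and near 0 in WT 3. Medians over all measured members, those at background included, were 0.25, 0.09 and -0.22 for interneuron markers in WT 1, WT 2 and WT 3. Over the 10 interneuron markers above background they were 0.41, 0.16 and -0.45. Astrocyte markers had -0.21, 0.22 and -0.04, and the 17 above background -0.16, 0.20 and -0.04. Over all members, markers of layers II and III had -0.12, 0.01 and 0.18, and those of deep layers and subplate 0.06, 0.04 and -0.04. Endothelial markers ran from -0.11 in WT 2 to 0.18 in WT 3. Ribosomal proteins (-0.10, 0.09 and 0.00) and respiratory chain subunits (-0.08, 0.11 and -0.04) were highest in WT 2, which also had the steepest 3' bias; its part in these values was not tested. The haemoglobin signals, highest in WT 3, moved with each difference in which WT 3 stood apart, and their part was not tested. With 1 array per mouse, differences between animals, dissections and amplifications cannot be told apart.

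**Figure D5:**
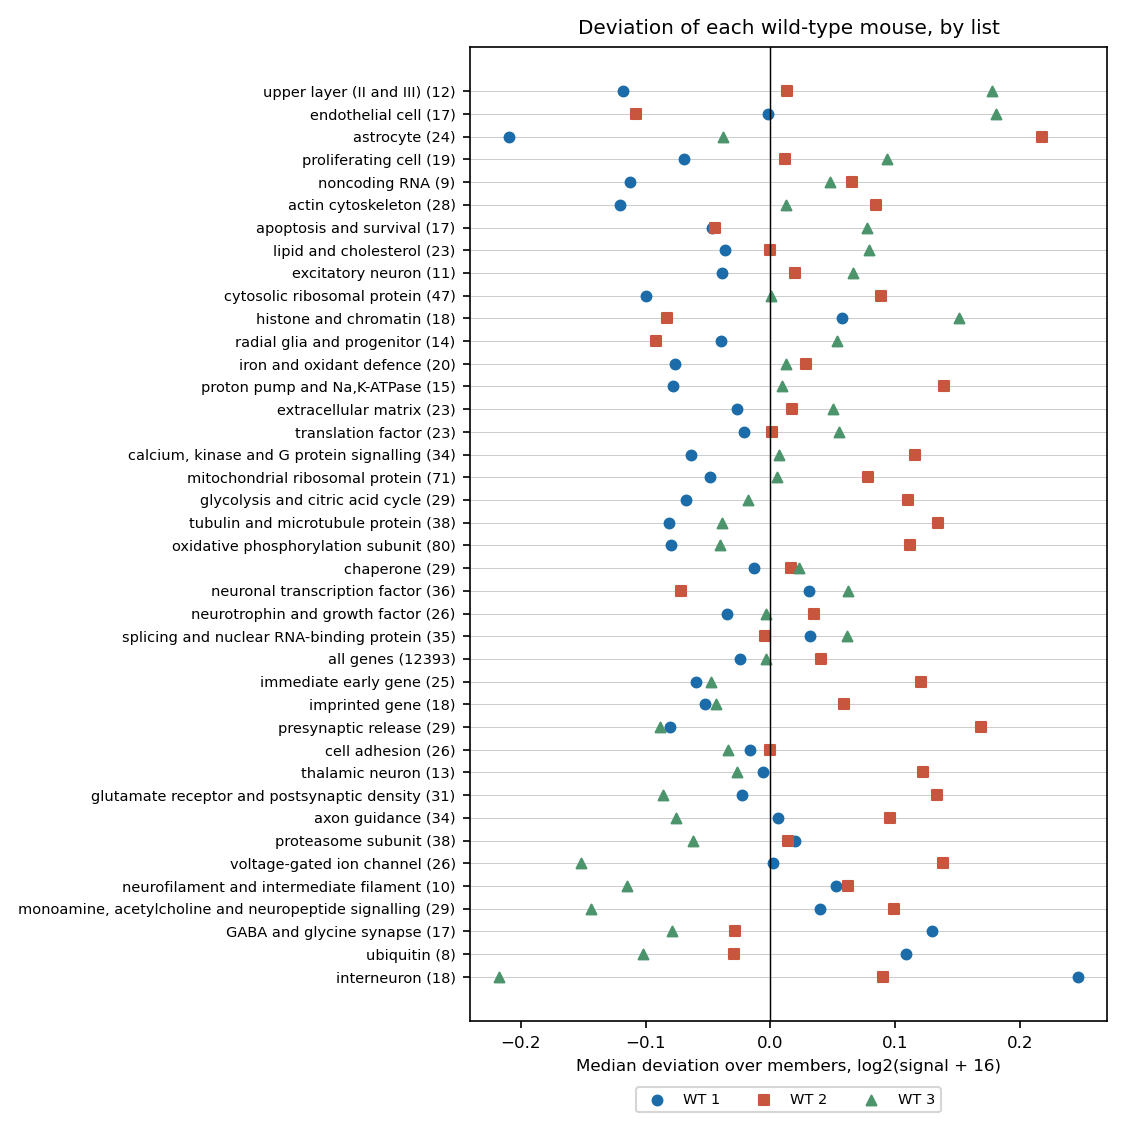
Median deviation of each mouse from the mean of the 3, on the log2(signal + 16) scale, for all genes and over all measured members of each list with at least 6 genes above background, ordered by the difference between WT 3 and WT 1. Interneuron markers lie at 0.25 in WT 1 and -0.22 in WT 3, astrocyte markers at -0.21 in WT 1 and 0.22 in WT 2, and all genes within 0.04 of 0.

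The sexes of the mice are not given by the labels, and transcripts of the sex chromosomes differed between them. Xist, the RNA that silences an X chromosome in females, read 2914, 2559 and 187. Eif2s3y of the Y chromosome read 0.95, 3.44 and 1334, and Uty (42.2, 47.4 and 182) and Kdm5d (40.1, 38 and 175) were highest in WT 3 but below its bound. The X-linked Ddx3x (4691, 3418 and 3393) and Eif2s3x (1567, 1388 and 1398) were above the bound in all 3. These are the patterns of a male in WT 3 and of females in WT 1 and WT 2, so that sex moves with every difference between WT 3 and the other mice, and its part was not tested.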

How the data were processed

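The authors deposited 1 intensity per probe set, on a linear scale. The submitters' processing notes name MAS5 and Affymetrix Expression Console. The scaling target, detection calls, probe build and software versions: not given in the sources used here. Probe sets were named through the platform annotation; of 20380 with 1 symbol, 20351 matched RefSeq (assembly GRCm38.p6) by Entrez identifier, 691 had several symbols and were left out of the gene counts, and 1555 had none. The classes, rank percentiles, list counts and spreads were computed with Python 3.11.15, pandas 2.3.3 and numpy 2.4.6, with a pseudocount of 16 where log2 values were taken. The class procedure was run on simulated arrays with chosen genes set far above the abundance threshold or far below the bound. Genes set so far from the limits do not test the calls near them. No test between groups was run. Samples were grouped by title.

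The members and the gene lists (20 cell types, 34 functions and the reference list) were chosen with earlier results of these data known. The genes named are the 25 brightest, the 3 brightest and 2 dimmest of each list, the defining markers, the 12 most and 8 least variable, Gap43, and the 6 on each side of the abundance threshold; all others, among them those whose promoters are shown, were chosen after their values were seen. Promoter windows came from a RefSeq table that is not complete. Alternatives covered the summary over arrays, the normalization, the bound, the abundance threshold, the choice of probe set, a filter on low signals and each mouse left out.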

Additional observations from a re-analysis of the deposited data

How the results depend on the processing

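With the mean of log2 values, the median of the 3 signals or quantile normalization, the number of abundant genes was 705 to 709 (708 in the report), and 670 or more of the same genes stayed abundant there and without each mouse. The bound set the lower classes: with the 99th percentile of the reference genes, 3237 genes were moderate in place of 5083, and 54 markers over all cell type lists stood above background in place of 93. Widening the abundance threshold to 10% of probe sets gave 1509 abundant genes. Narrowing it to 2% gave 263, and 154 abundant members over all function lists in place of 284. Taking the median over a gene's probe sets gave 389 abundant genes and 180 list members, and taking only probe sets without the suffixes _s_at, _x_at and _a_at gave 330 and 130, since 61.0% of abundant genes were read by a suffixed probe set. Without WT 2, 595 genes were mixed in place of 1076. Without WT 1, WT 2 or WT 3 in turn, background genes ranged from 5643 to 5742 (5526 in the report), mixed genes from 595 to 785, and the median ratio of highest to lowest signal from 1.12 to 1.21 (1.29 with all 3), which fewer arrays lower by construction. Single lists moved past the tolerance in 23 of 260 marker counts and 83 of 442 function counts. Counting probe sets of several symbols for each listed gene they name, an alternative chosen after seeing the data, gave 97 markers above background and 313 abundant members of function lists, and moved the blood cell markers from 0 to 3, the haemoglobin and serum protein members from 0 to 4, the chromatin genes from 5 to 10 and the imprinted genes from 3 to 5. No paired analysis was possible because no groups are compared. What signal over background limits is the lower end: where a bound of 1 array decides, a gene's class is a statement about that array.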

Other observations

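Only 286 of the 708 abundant genes (40.4%) belong to a list above, and some families outside the lists were bright. These families were chosen after their values were seen and are described with no test. Of 50 measured Rab genes, GTPases that direct vesicle traffic, 11 were abundant, with Rab14 highest at 9047. Vdac1 (10116), a channel of the outer mitochondrial membrane, was among 2 abundant genes of 3 in its family. The mitochondrial carriers had 4 abundant genes of 33, led by the ATP/ADP exchanger Slc25a4 (10144, 10591 and 11504). Of 8 Bex and Tceal genes, X-linked and known from neurons, 4 were abundant, with Bex1 at 9304, 11054 and 9159. Selenoproteins had 4 abundant genes of 19, led by Selenow (7001, 11128 and 7865), and ubiquitin-conjugating enzymes 6 of 27.

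Families of body patterning, detoxification, skin and immune signalling lay at the other end. Of 31 Hox genes, which pattern the hindbrain and trunk but not the cortex, 29 were at background and Hoxa9 (409, 186 and 249) was brightest. Of 61 cytochrome P450 genes 54 were at background, and Cyp46a1, the brain enzyme that turns over cholesterol, was the brightest at 679, 966 and 749.7. Keratins had 33 of 40 at background, interleukins 28 of 30, with Il18 brightest (571, 599 and 645), and chemokines 25 of 30, with Ccl27a brightest (843, 1984 and 1054). The Zfp zinc finger genes were divided, with 74 of 157 at background and 2 abundant. Over all genes, 44.6% were at background.

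The letters TGACGTCA, read on both strands, are known as the site of cyclic AMP responsive factors. They stood in 5.96% of the promoter windows of abundant genes and 3.18% of those of moderate genes. The share was 2.75% for all genes on the array and 1.88% for all windows. A match describes letters only. Genes of the ribosome were also short, with a median span of 3.55 kb in the RefSeq table, against 18.3 kb for abundant, 23.8 kb for moderate and 17.0 kb for background genes.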
